A study of Mus musculus with 8 samples.

Results

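Hepatocytes that had lost Yap and Taz were cultured on a stiff (20 kPa) or a soft (1 kPa) hydrogel, and the comparison of these 2 cultures was taken gene by gene from their mRNA. The 4 libraries labelled as Yap/Taz knockout were used, 2 from each hydrogel, out of 8 in the series, and 14279 of the 56748 genes listed passed a filter on low counts and were tested. The knockout (Yap/TazHepKO) came from C57BL/6J mice with floxed Yap and Taz alleles (Yap fl/fl; Taz fl/fl), aged 7 to 8 weeks, that received AAV8-TBG-Cre, in which the TBG promoter drives Cre in hepatocytes. The wild-type controls carried the same floxed alleles and received AAV8-TBG-Null. The study's methods also give the mice a ROSA26-LSL-tdTomato reporter. Primary hepatocytes were isolated after 10 days and kept for 24 h on collagen I-coated polyacrylamide hydrogels. This is a dissociated culture outside the tissue and matrix of the liver, and markers of other liver cells were present at low level. The labels do not say whether the libraries of a group came from separate mice, so p-values measure the spread between these libraries, which may be technical. The sources give the sex of the mice as female in the series description and male in the growth protocol, and all 8 libraries had 4818 to 8443 counts of Xist and 0 counts of 4 Y-linked genes.

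YAP and TAZ are transcriptional coactivators at the end of the Hippo kinase pathway. They carry no DNA-binding domain and act on enhancers through TEAD factors. On a rigid substrate, where integrins and actin are under tension, they move into the nucleus and turn on genes such as Ccn1, Ccn2 and Ankrd1. In the healthy liver their activity in hepatocytes is low, and it rises with injury and fibrosis. The comparison described here asks how much of the transcriptional response to stiffness was left when hepatocytes lacked both proteins.

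The knockout libraries held 19660694 to 25183704 counts. Yap1 had 29.2 and 31.8 CPM (normalized counts, scaled to library size) in the soft libraries of the knockout and 28.4 and 31.3 CPM in the stiff ones, against 95.5 to 140 CPM in the 4 wild-type libraries. Wwtr1, the gene of TAZ, had 16.0 and 16.6 CPM on soft and 15.7 and 13.7 CPM on stiff, against 41.5 to 65.2 CPM in wild type. These values count reads over whole genes, including exons outside the deleted part. Hepatocyte markers made up 72784 to 73259 CPM in the 4 knockout libraries, with 11 of 11 tested, and Alb differed between the hydrogels by a log2 fold change of -0.0079. Markers of other liver cells were present at low level. Summed CPM on soft and then stiff were 151 and 154 against 172 and 161 for endothelial cells (12 of 12 tested), 156 and 160 against 158 and 161 for Kupffer cells and macrophages (14 of 14), 56.4 and 57.7 against 60.4 and 57.0 for stellate cells and fibroblasts (10 of 12), and 377 and 378 against 351 and 362 for cholangiocytes (6 of 9, with 2 at 0 in every knockout library). Lymphocyte and neutrophil markers summed to 3 to 13 counts per library, none of them tested.

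Stiffness had little effect on the knockout transcriptome. There were 3 genes that passed an adjusted p under 0.05 with an absolute log2 fold change over 0.5 (quasi-likelihood F-test of edgeR, p adjusted by Benjamini-Hochberg), which was 0.021% of the genes tested. In wild-type hepatocytes the same thresholds called 2754 genes, or 19.3%, with 1432 higher and 1322 lower on the stiff hydrogel. By the interaction term of genotype and hydrogel, 2405 genes (16.8%) responded differently in the knockout and in wild type. The median absolute log2 fold change was 0.092 in the knockout and 0.27 in wild type. In the 9969 genes that averaged 100 counts or more across the knockout libraries, the median absolute difference between a stiff and a soft knockout library was 0.073 to 0.098 on the log2 scale over the 4 pairs. The replicate libraries differed from each other by 0.070 on soft and 0.081 on stiff. A pair of wild-type libraries from different hydrogels differed by 0.21 to 0.22.

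Each of the 3 genes called has a near-identical copy elsewhere in the genome. Psme2 encodes a subunit of the PA28 proteasome activator, which interferon induces, and Psme2b is its copy on another chromosome. Mup16 belongs to the major urinary protein (Mup) genes, a cluster of pheromone carrier genes expressed in the liver. The coding sequences of Psme2 (chromosome 14, 55587441 to 55591113, minus strand) and Psme2b (chromosome 11, 48945354 to 48946190, minus strand) were 99.3% identical over 720 bases, with 5 differences and an identical run of 311 bases. Those of Mup16 (chromosome 4, 61515592 to 61519531, minus strand) and Mup17 (chromosome 4, 61591929 to 61595871, minus strand) were 98.9% identical over 543 bases, with 6 differences. Positions are on GRCm38 and sequences are from GENCODE M21 transcripts. The coding stretch with the most differences in each pair is shown, bases 424 to 543 for Psme2 and 101 to 220 for Mup16. It holds 3 differing bases for Psme2 and 4 for Mup16. Over the longest transcript, the 64-base windows shared with another gene were 54.7% for Psme2, 63.6% for Psme2b, 87.4% for Mup16 and 72.9% for Mup17. The remaining windows were not shared, and how reads were assigned between copies was not tested. Capitals mark the bases that differ within the pair.
Psme2: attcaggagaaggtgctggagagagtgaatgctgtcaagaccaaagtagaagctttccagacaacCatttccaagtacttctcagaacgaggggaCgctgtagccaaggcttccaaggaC
Psme2b: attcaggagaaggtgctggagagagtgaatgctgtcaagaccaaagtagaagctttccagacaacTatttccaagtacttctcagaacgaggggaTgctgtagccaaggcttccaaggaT
Mup16: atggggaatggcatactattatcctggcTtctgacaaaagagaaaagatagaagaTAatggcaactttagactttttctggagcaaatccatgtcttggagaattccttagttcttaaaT
Mup17: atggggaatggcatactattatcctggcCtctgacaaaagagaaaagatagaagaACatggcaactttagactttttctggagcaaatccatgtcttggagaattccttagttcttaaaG

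Psme2 had 2167 and 1463 counts on soft and 935 and 1173 on stiff. It was lower on stiff, at -0.63 on the log2 scale (standard error 0.097, adjusted p = 0.0227 by edgeR). Psme2b had 776 and 639 counts on soft and 1304 and 992 on stiff, and was higher by 0.83 (standard error 0.099, adjusted p = 0.00244 by edgeR). The hydrogels did not overlap for either gene, and the copies moved in opposite directions. Added together, the pair had 2943 and 2102 counts on soft and 2239 and 2165 on stiff. On the log2 scale the sum was at -0.052 (standard error 0.054, 95% interval -0.17 to 0.061, adjusted p = 0.834 by edgeR). In wild-type hepatocytes the sum was higher on stiff by 0.33 (adjusted p = 6.17e-05 by edgeR).

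Mup16 had 6 and 0 counts on soft and 148 and 106 on stiff, or 5.48 on the log2 scale (standard error 1.14, adjusted p = 0.00341 by edgeR). Its neighbours differed from it. Mup17 had 2070 and 15 counts on soft and 6 and 133 on stiff, Mup18 had 1011 and 0 on soft and 1 and 0 on stiff, and Mup19 had 70 and 64 on soft and 0 and 0 on stiff. For Mup17 and Mup18 the soft libraries were far apart, while Mup19 separated by hydrogel in the direction opposite to Mup16 (adjusted p = 0.0561 by edgeR). All genes and pseudogenes named Mup summed to 27274 and 19287 counts on soft and 17123 and 18276 on stiff. On the log2 scale that sum was at -0.25 (standard error 0.070, 95% interval -0.40 to -0.10). The interval did not include zero, and the p by edgeR was 0.00249 unadjusted and 0.566 adjusted.

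**Figure D1:**
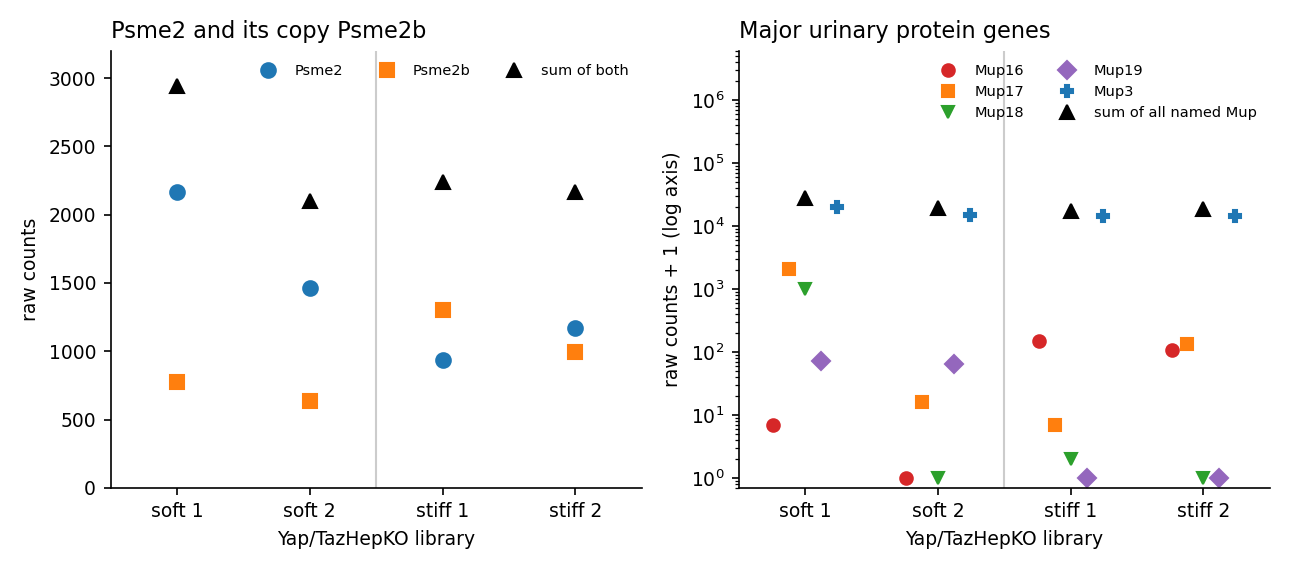
Raw counts of Psme2, Psme2b and their sum (left, linear axis) and of 5 Mup genes and the sum of all named Mup (right, counts plus 1 on a log axis) in the 4 Yap/TazHepKO libraries, soft left of the grey line and stiff right of it. The sum of Psme2 and Psme2b was 2943 and 2102 on soft and 2239 and 2165 on stiff, while Psme2 was lower and Psme2b higher in both stiff libraries than in either soft one.

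With Psme2 and Psme2b summed and all Mup genes summed, edgeR called 0 genes, with 1078 at an unadjusted p under 0.05. Among the 9866 genes that share no 64-base window with another gene's transcript, edgeR called 0, with 854 at that p. In the fit of all genes, the smallest adjusted p of a gene without such a window was 0.230 (edgeR). The calls depended on single libraries and on the tool. Without the first knockout soft library the adjusted p by edgeR was 0.804 for Psme2, 0.106 for Psme2b and 0.106 for Mup16. Without the second it was 0.0906 for Mup16, and without the first knockout stiff library 0.184 for Psme2. DESeq2 on 8 libraries gave an adjusted p of 0.331 for Psme2. With the replicate number as a block, edgeR gave 0.0577 for Psme2. A robust fit called Lsm5 alone, and the fit without the first knockout soft library called Mfap1b alone, both named here after their values were seen. Without the second knockout stiff library 8 genes were called, and without either wild-type soft library 6.

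The size of any remaining response was limited by the 95% interval of each gene's log2 fold change. The median half-width of these intervals was 0.23, and 9329 genes (65.3%) had an interval that lay wholly within 0.5 of zero and 11611 (81.3%) within 1. A test of equivalence, adjusted over all genes, placed 9512 genes within 0.5 and 11947 within 1. For the 9969 genes averaging 100 counts or more, 92.3% of intervals lay within 0.5 and 99.6% within 1. Depth set the limit. Under 30 counts, no interval of 2449 genes lay within 0.5 and 7.72% lay within 1, with a median half-width of 1.15. From 30 to 100 counts the half-width was 0.57 and 6.66% lay within 0.5. From 300 to 1000 counts it was 0.19 and 98.2% did. At 3000 counts and above it was 0.095. A change of 2-fold was therefore outside the interval of nearly every well-counted gene, and under 30 counts the depth left a change of that size inside the interval of most genes.

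**Figure D2:**
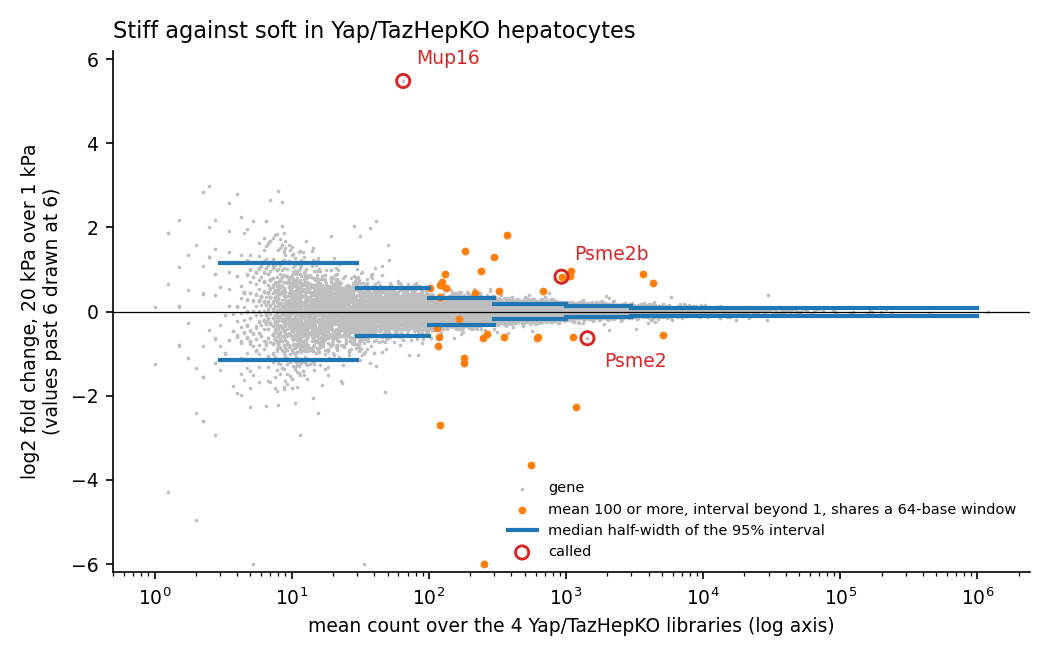
Log2 fold change of each tested gene, stiff over soft, against its mean count in the 4 Yap/TazHepKO libraries (log axis). Blue lines are the median half-width of the 95% interval, which was 1.15 under 30 counts and 0.095 at 3000 and above, red circles the 3 genes called, and orange points the 35 genes of at least 100 counts with an interval reaching beyond 1 that share a 64-base window with another gene.

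The exceptions among well-counted genes were mostly genes with copies. Of the 9969 genes, 36 had an interval that reached beyond 1, and 35 of them (97.2%) shared a 64-base window with another gene, against 28.3% of the 9969. Ribosomal protein genes and their processed pseudogenes were among them. Rpl17 had 6368 and 6114 counts on soft and 4390 and 3495 on stiff, while its pseudogene Rpl17-ps10 had 3614 and 1907 on soft and 4452 and 4621 on stiff. Gapdh, a glycolytic enzyme with many pseudogenes, had 3696 and 322 counts on soft and 357 and 346 on stiff, so that its log2 fold change of -2.27 came from 1 soft library and the groups overlapped. The exception without a shared window was Lin9, a subunit of the DREAM and MuvB complexes of the cell cycle, with 141 and 120 counts on soft and 73 and 82 on stiff. Lin9, Rpl17-ps10 and Gapdh are named here because of their values. Its log2 fold change was -0.62 (standard error 0.18, adjusted p = 0.565 by edgeR). An absolute log2 fold change over 0.5 was reached by 43 of the 9969 genes, 37 with a shared window and 6 without.

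The wild-type response was set against the knockout gene by gene, and the 2 contrasts share no library, only the estimate of spread. Over the 2754 genes called in wild type, the slope of the knockout on the wild-type log2 fold change, through the origin, was -0.019, a description over genes that are not replicates. It was 0.0090 without the first knockout soft library and -0.042 without the first knockout stiff library, and -0.0037 over genes with at least 10 counts in every library. For 1996 genes (72.5%) the upper end of the knockout interval, in the wild-type direction, stayed below 0.5 times the wild-type change, and for 1200 below 0.25 times. Among the 1747 of them with a mean of at least 100 counts in the knockout, 1508 (86.3%) stayed below 0.5 times. Only 12 of these had a knockout value over 0.5 times the wild-type change in the same direction. The wild-type change enters here as a point estimate without its error. The genes were also selected on it, which can raise these shares. Genes in the strongest wild-type bin, 36 with a log2 fold change above 3, had a median of 3.40 in wild type. Their knockout median was -0.16, with a 5th to 95th percentile of -3.80 to 2.94 and a range of -4.96 to 3.21. The bins had no floor on knockout counts, so low counts limit what this median can show. The 51 genes below -3 had a knockout median of 0.0033.

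Weak differences did not follow the wild-type direction. An unadjusted p under 0.05 in the knockout was reached by 218 of the 2754 genes, 7.92%, beside 7.54% of all genes tested, and of the 218, 108 differed in the wild-type direction and 110 in the opposite one. Well-counted genes with large wild-type responses lay near zero in the knockout. Cpe, carboxypeptidase E, was lower on stiff by a log2 fold change of -4.01 in wild type and had 2048 and 1646 counts on soft and 1676 and 1693 on stiff in the knockout, a difference of 0.0033 (95% interval -0.12 to 0.13). Sema3c, a secreted semaphorin, was at -3.89 in wild type and had 368 and 293 counts on soft and 341 and 280 on stiff in the knockout, a difference of 0.044 (95% interval -0.22 to 0.31). Crct1 was at 2.98 in wild type and at -0.065 in the knockout (95% interval -0.26 to 0.13). Hopx, a homeodomain protein without DNA binding, was 1 of the 12 with a knockout value over 0.5 times the wild-type change. It had 224 and 160 counts on soft and 127 and 98 on stiff. Its log2 fold change was -0.63 in the knockout (adjusted p = 0.484 by edgeR) and -0.55 in wild type.

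**Figure D3:**
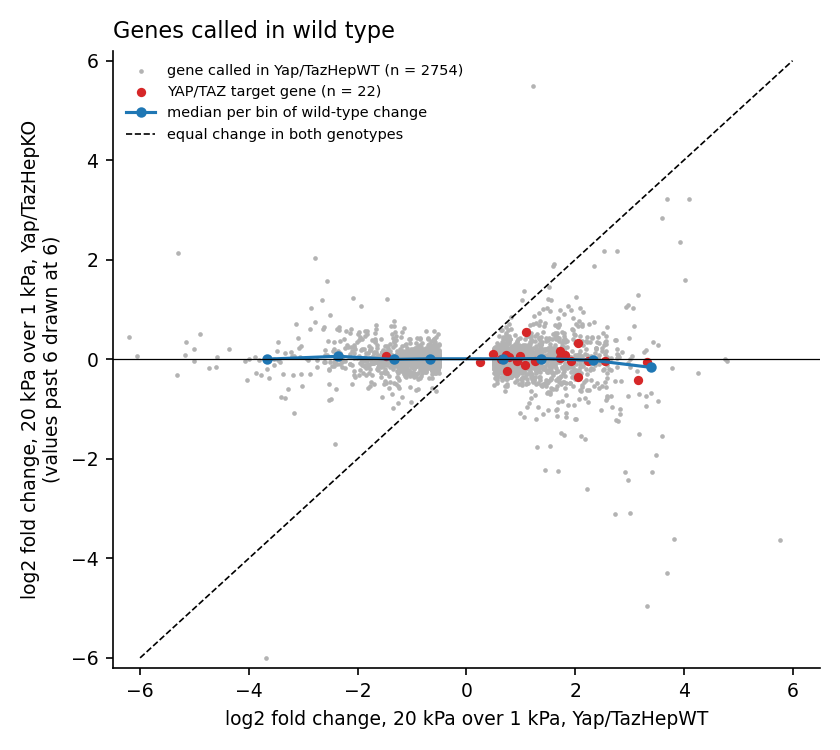
Log2 fold change, stiff over soft, in Yap/TazHepKO against Yap/TazHepWT for the 2754 genes called in wild type (grey) and the 22 tested YAP/TAZ target genes (red). The median per bin of wild-type change (blue) stays between -0.16 and 0.061 in the knockout, far from the dashed line of equal change. The bins had no floor on knockout counts.

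Target genes of YAP and TAZ showed this most directly. Of 22 tested, 18 were higher and 1 lower on stiff in wild type by the thresholds, with a median log2 fold change of 1.17. In the knockout 0 were called, 11 were above and 11 below zero, the median was -0.012, and 18 of 22 intervals lay within 0.5. Ccn2, a matricellular growth factor, had 366 and 250 counts on soft and 274 and 267 on stiff. Its log2 fold change was -0.046 (95% interval -0.23 to 0.13), against 3.32 in wild type. Ccn1, its relative, had 3144 and 2728 counts on soft and 2817 and 2613 on stiff, a difference of 0.016 (95% interval -0.085 to 0.12) against 1.72. The libraries of the hydrogels overlapped for both. Ankrd1, a muscle and stress-response ankyrin protein, had 175 and 148 counts on soft and 116 and 103 on stiff, and did not overlap. Its log2 fold change of -0.43 (95% interval -0.69 to -0.16, adjusted p = 0.484 by edgeR) ran against the wild-type value of 3.15. Tgfb2 and Lats2, a TGF-beta ligand and a Hippo kinase under feedback from YAP, were the other members with an unadjusted p under 0.05, at -0.36 and -0.24 in the knockout and 2.05 and 0.74 in wild type. All 3 were lower, beside 3.19% of all genes lower and 4.36% higher at that p.

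The gene lists by function stayed near zero. Of 49 lists with at least 5 tested members, 46 had a knockout median within 0.1 of zero, where the median of all genes was 0.0076. In wild type 10 lists had an absolute median over 0.5. No member of a list was called in the knockout other than Psme2, Psme2b and Mup16. Single library differences were large against such medians, and 15 of the 49 medians kept their sign under all alternatives run. The groups of 2 libraries did not overlap for 20.9% of all genes in the higher and 17.2% in the lower direction, so non-overlap alone says little of a member.

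**Figure D4:**
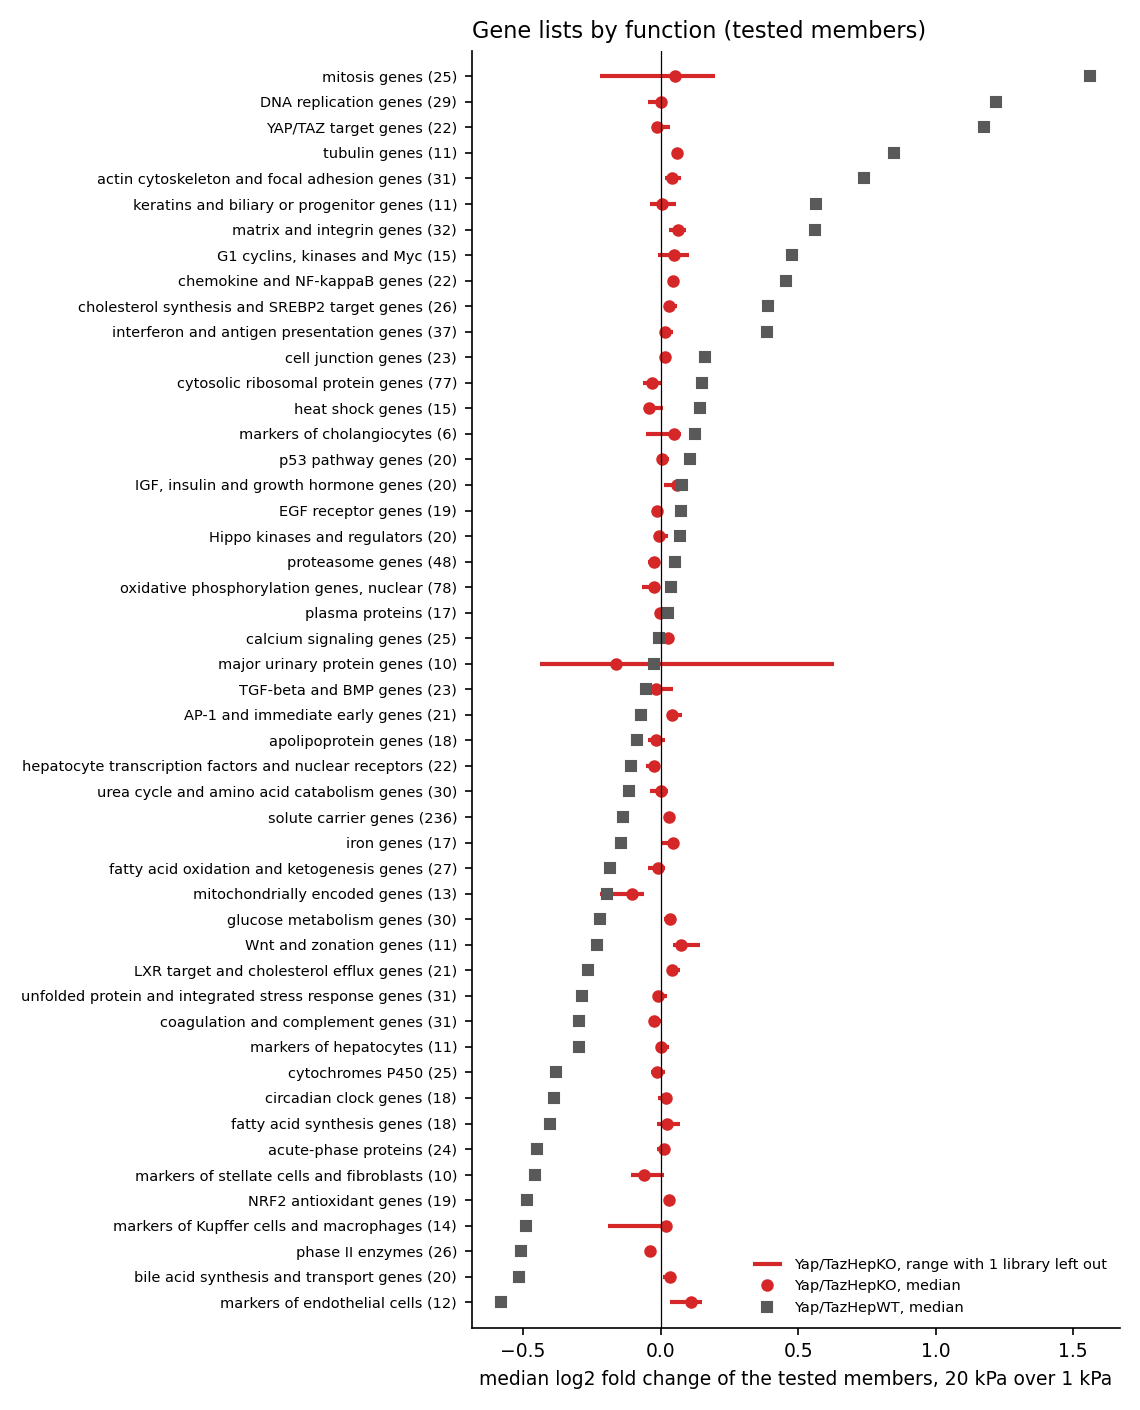
Median log2 fold change, stiff over soft, of the tested members of 49 gene lists in Yap/TazHepKO (red circles, bars from the lowest to the highest value with 1 of the 8 libraries left out) and Yap/TazHepWT (grey squares), ordered by the wild-type median, with the number of members tested in brackets. Wild-type medians ran from -0.58 to 1.56, and knockout medians from -0.16 to 0.11.

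Cell cycle and cytoskeleton genes, whose lists were higher on stiff in wild type, had medians near zero in the knockout. DNA replication genes had a median of 0.0017 (29 tested, 0 higher and 1 lower at unadjusted p under 0.05) against 1.22 in wild type. Mitosis genes had 0.054 against 1.56. Their counts were low, only 2 of 25 intervals lay within 0.5, and the median ran from -0.22 without the second knockout soft library to 0.20 without the first. Of the 25 mitosis genes, 15 lay above zero and 10 below. Mki67, the proliferation antigen, is named here outside the naming rules, and its value ran opposite to the list median. It had 54 and 50 counts on soft and 40 and 35 on stiff, a log2 fold change of -0.34 (95% interval -0.80 to 0.12). Actin cytoskeleton and focal adhesion genes had a median of 0.041 against 0.74, with 5 of 31 higher and 1 lower at unadjusted p under 0.05 (16.1% and 3.23%, beside 4.36% and 3.19% of all genes). Myh9, non-muscle myosin heavy chain, was at 0.081 (95% interval 0.0051 to 0.16) and Actn4, an actin crosslinker, at 0.11 (0.021 to 0.19), against 0.61 and 0.65 in wild type. Srf, the serum response factor that controls actin genes, had 861 and 714 counts on soft and 917 and 792 on stiff, a difference of 0.25 (95% interval 0.080 to 0.42) against 0.48. With GC and length offsets the list had 0 higher and 2 lower at that p, and the values were -0.0047 for Myh9, 0.045 for Actn4 and 0.12 for Srf. Matrix and integrin genes had a median of 0.065 against 0.56, and of -0.0054 with offsets.

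Cholesterol genes, the subject of the study, mostly had narrow limits. Intervals lay within 0.5 for 24 of 26 synthesis and SREBP2 target genes and for 16 of 21 LXR target and efflux genes. LXR, which is activated by oxysterols and pairs with RXR, switches on cholesterol efflux, and SREBP2 switches on synthesis and uptake. Nr1h3, the gene of LXRα, had 1553 and 1195 counts on soft and 1288 and 1261 on stiff. Its log2 fold change was 0.030 (95% interval -0.10 to 0.16), against -0.42 in wild type. Rxra was at 0.040 (-0.064 to 0.14). Abca1, the exporter that lipidates apolipoprotein A-I, had 2511 and 2039 counts on soft and 2083 and 2080 on stiff, a difference of 0.0071 (95% interval -0.11 to 0.12) against -0.45. Abcg5 and Abcg8, which pass cholesterol into bile, had few counts and wide limits. Abcg5 had 50 and 43 counts on soft and 56 and 58 on stiff (0.43, 95% interval -0.12 to 0.97), and Abcg8 was at 0.10 (-0.34 to 0.54). Over the 21 LXR target and efflux genes the median was 0.040 against -0.27 in wild type, with 3 higher and 2 lower at unadjusted p under 0.05. With GC and length offsets it was 0.018, with 1 higher and 2 lower. Among the 3 was Scarb1, the HDL receptor, at 0.19 (adjusted p = 0.579 by edgeR). The 2 lower were Soat1 at -0.86 and Nr1h4 at -0.20, and with offsets these were at -0.85 and -0.18. Cholesterol synthesis and SREBP2 target genes had a median of 0.032 against 0.39, with 5 of 26 higher and 1 lower at that p (19.2% and 3.85%, beside 4.36% and 3.19% of all genes). With GC and length offsets the list had 1 higher and 1 lower and a median of 0.0077.

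Bile acid, fatty acid synthesis, phase II, acute-phase and P450 genes, whose list medians were lower on stiff in wild type, showed no such fall. Plasma protein and apolipoprotein lists were nearer zero in wild type, at 0.028 and -0.085, and at -0.0010 and -0.017 in the knockout. Bile acid synthesis and transport genes had a median of 0.033 (20 tested, 1 higher at unadjusted p under 0.05) against -0.51, with 10 called lower in wild type and 0 in the knockout. Cyp8b1, which makes cholic acid, had 1313 and 1102 counts on soft and 1085 and 1169 on stiff, a difference of 0.035 (95% interval -0.12 to 0.19) against -1.26. Cyp27a1 was at 0.0052 (-0.092 to 0.10), and Cyp7a1 had 0 and 0 counts on soft and 0 and 1 on stiff and was not tested. Fatty acid synthesis genes had a median of 0.023 against -0.40, and of -0.0010 with offsets. Fasn, fatty acid synthase, had 10456 and 8622 counts on soft and 10224 and 9298 on stiff, without overlap after scaling. Its log2 fold change was 0.17 (95% interval 0.073 to 0.26, adjusted p = 0.543 by edgeR), opposite to the wild-type -1.17, and 0.070 with GC and length offsets. Acaca, acetyl-CoA carboxylase, was at 0.027 (-0.071 to 0.13) against -1.43. Phase II enzymes had a median of -0.040 against -0.51, acute-phase proteins 0.011 against -0.45, and cytochromes P450 -0.013 against -0.38, with 24 of 25 P450 intervals within 0.5. Piezo1, a stretch-gated calcium channel, had 379 and 300 counts on soft and 319 and 301 on stiff, a difference of 0.0053 (95% interval -0.19 to 0.20) against 1.28.

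The mitochondrially encoded genes of the respiratory chain lay on 1 side of zero, and none passed adjustment. All 13 mitochondrially encoded genes tested had lower values on stiff, 8 of them at unadjusted p under 0.05 and 0 after adjustment, with a median of -0.11. Mitochondrial counts were 3.68% and 3.60% of the soft and 3.42% and 3.39% of the stiff libraries. They were also lower on stiff in wild type, 3.44% and 3.20% against 2.75% and 2.77%, with a list median of -0.20. mt-Co1, a subunit of cytochrome oxidase, had 384174 and 294951 counts on soft and 300940 and 283958 on stiff, a log2 fold change of -0.077 (95% interval -0.12 to -0.031, adjusted p = 0.543 by edgeR), and part of its sequence is shared with another gene. mt-Nd6, a complex I subunit, was at -0.21 (95% interval -0.31 to -0.11, adjusted p = 0.364 by edgeR), and it overlaps mt-Nd5 on the other strand, so their reads can be told apart only if the counting used strand. With GC and length offsets mt-Nd6 was at -0.081 and mt-Co1 at -0.0071. Nuclear oxidative phosphorylation genes had a median of -0.025 against 0.037 in wild type, with 53 of 78 below zero. At unadjusted p under 0.05, 11 were lower and 3 higher (14.1% and 3.85%, beside 3.19% and 4.36% of all genes). As deviations from the mean of the 4 knockout libraries, library medians were 0.032 and -0.0012 on soft and -0.049 and 0.010 on stiff. The hydrogels therefore overlapped for this list, and its median ran from -0.067 to -0.010 with 1 library left out. Of all 14279 genes tested, 6790 lay below zero and 7486 above. Cytosolic ribosomal protein genes had -0.031, with 49 of 77 below zero. At unadjusted p under 0.05, 6 of these were lower and 1 higher (7.79% and 1.30%). Their median was 0.0024 without the first knockout stiff library. Proteasome genes had -0.025, with 30 of 48 below zero and 5 lower and 3 higher at that p (10.4% and 6.25%). In the other direction, 145 of 236 solute carrier genes lay above zero, with 15 higher and 2 lower (6.36% and 0.847%) and a median of 0.030. With offsets for GC content and transcript length, described with the base composition, that list had 3 higher and 3 lower and a median of 0.013. Endothelial markers had the highest median, 0.11, with 9 of 12 above zero. Stab1, a scavenger receptor of sinusoidal endothelium, had 682 and 550 counts on soft and 741 and 644 on stiff, a difference of 0.30 (95% interval 0.13 to 0.47, adjusted p = 0.543 by edgeR), and of 0.21 with offsets. Fewer cells of a type and less RNA per cell cannot be told apart in such bulk libraries.

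The weak differences were ordered by base composition. The 14116 tested genes with a GENCODE M21 transcript (98.9%) were put in 10 bins of like size by the GC content of the longest transcript. The median log2 fold change of a bin ran from -0.064 at 22.1 to 41.2% GC to 0.095 at 57.6 to 75.5% GC. The lowest bin held 13 genes higher and 134 lower at unadjusted p under 0.05, and the highest bin 200 higher and 10 lower. Across genes, which are not independent replicates, GC content correlated with the knockout log2 fold change at r = 0.14, and log2 transcript length at 0.022. The 622 genes higher at that p had a median GC content of 55.6% and the 455 lower 43.8%. The mitochondrial genes, at a median of 37.1% GC, stood at the low end.

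**Figure D5:**
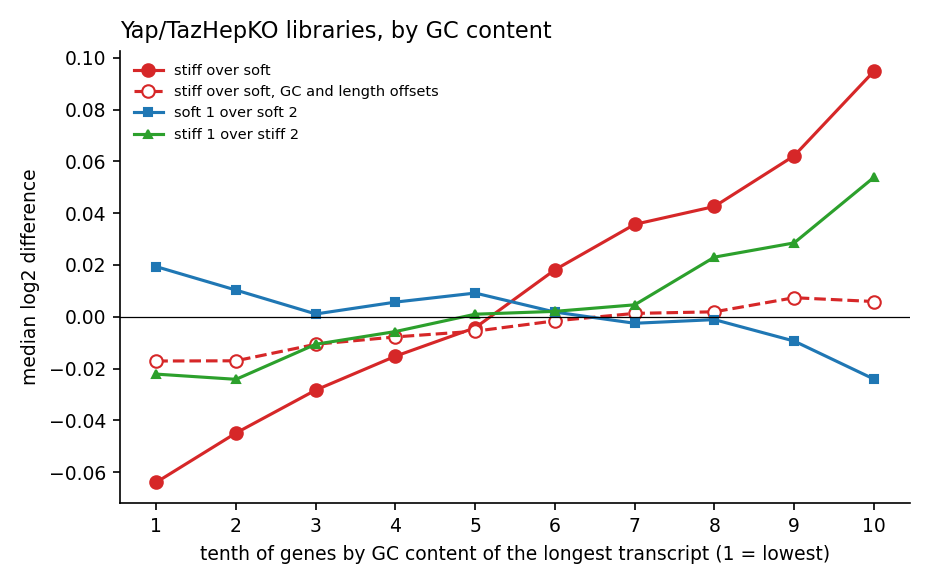
Median log2 difference of the genes in 10 bins of GC content, from the lowest (1) to the highest (10), between the hydrogels (red), between the hydrogels with GC and length offsets (open red), and between replicate Yap/TazHepKO libraries on soft (blue) and on stiff (green). The stiff against soft median ran from -0.064 to 0.095, and with offsets from -0.017 to 0.0074. The offsets came from GC content in these same libraries, so the flatter line was fixed in advance.

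Single libraries also differed in this way. The median deviation from the mean of the 4 knockout libraries in the highest GC bin, less that in the lowest, was -0.11 and -0.055 for the soft and 0.12 and 0.038 for the stiff libraries. In wild type it was -0.12 and 0.074 for soft and 0.036 and 0.0091 for stiff. The wild-type soft libraries thus lay on opposite sides of zero. In the knockout both soft libraries were below zero and both stiff libraries above it. Whether base composition or library preparation had a part in the functional trends was not tested. A fit with offsets for GC content and length was run, chosen after seeing the data. Its offsets came from these same libraries, so a flatter GC trend in that fit was fixed in advance. In that fit the same 3 genes were called, 747 genes had an unadjusted p under 0.05, and 315 of these were higher and 432 lower, in place of 622 and 455. The median of the mitochondrially encoded genes was -0.0071 with offsets, with 1 of 13 lower at that p. That of actin and focal adhesion genes was -0.0047. In wild type, without offsets, the mitochondrially encoded list was at -0.20, the lowest GC bin at -0.034 and the highest at -0.011. Nuclear oxidative phosphorylation genes were at -0.033 with offsets, with 12 lower and 1 higher, though without offsets the libraries of the hydrogels overlapped. Endothelial markers were at 0.075.

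The well-counted genes with small p, apart from those called, differed by small amounts in the higher direction. Helz2, an interferon-induced helicase and nuclear receptor coactivator, had 2386 and 1868 counts on soft and 2386 and 2205 on stiff, a log2 fold change of 0.25 (95% interval 0.14 to 0.35, adjusted p = 0.230 by edgeR). Polrmt, the mitochondrial RNA polymerase, had 732 and 576 counts on soft and 794 and 728 on stiff, at 0.35 (0.20 to 0.51, adjusted p = 0.233 by edgeR). Jup, the junction protein plakoglobin, was at 0.20 and Bcl3, a nuclear IκB protein, at 0.25. On the lower side, Dimt1, an rRNA dimethyltransferase, had 176 and 132 counts on soft and 81 and 77 on stiff, at -0.82 (95% interval -1.17 to -0.47, adjusted p = 0.230 by edgeR), and it overlaps Kif2a on the other strand. Mfap1b, a splicing factor gene with a near-copy, had 194 and 305 counts on soft and 105 and 113 on stiff, at -1.10 (95% interval -1.59 to -0.60). Without the second knockout soft library Mfap1b was at -0.53, and without the first at -1.53. With GC and length offsets these values were 0.17 for Helz2, 0.25 for Polrmt, 0.11 for Jup, 0.15 for Bcl3, -0.76 for Dimt1 and -1.08 for Mfap1b. Of the 870 genes of at least 100 counts with an unadjusted p under 0.05, the median absolute log2 fold change was 0.18, and 36 were over 0.5.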

How the data were processed

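Poly-A RNA of cultured primary mouse hepatocytes was sequenced as paired ends. Per the labels and the study's methods, the authors aligned reads with HISAT2 2.0.5 and counted them per gene with featureCounts, and they deposited raw counts. How the counting treated strand and reads that match several places is not given in the sources used here. The submitters' processing notes name mm9. The deposited gene positions carry no stated build of their own and differ from the GRCm38 positions given above.

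Groups came from the sample labels. From the counts, edgeR 4.0.16 (R 4.3.3) was run on all 8 libraries with filterByExpr, TMM scaling, 4 group terms and the quasi-likelihood test, so that the spread was shared by all groups. Genes were called where the Benjamini-Hochberg adjusted p was under 0.05 and the log2 fold change, stiff over soft, lay beyond 0.5 in either direction. Intervals are 95% and come from the standard error of the fit. An exact permutation test of 2 against 2 libraries cannot go below p = 0.333. GC content, length and shared 64-base windows were taken from the longest GENCODE M21 transcript. The scripts were tested on simulated data. Alternatives were DESeq2 1.42.0, other scalings, filters and blocks, and each library left out. A total of 3 counts, the limit for a count of 0, was 0.119 to 0.153 CPM in the knockout and covers counting error only. Genes named are drawn from those called, the 10 lowest p per direction without overlap among genes averaging 100 counts or more, the extreme members of each gene list and those with an unadjusted p under 0.05, a fixed set of YAP/TAZ, cholesterol and lipid genes, the largest wild-type changes, and near-identical copies of called genes. The comparison, the lists and the rules were chosen with earlier results of these data known. Some genes of the lists are not reported here by name.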

Additional observations from a re-analysis of the deposited data

Results flagged for a closer look

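The stiffness effect differed between genotypes for 2405 genes by the interaction term, knockout minus wild type (edgeR). Of the genes called in the knockout, Psme2 had an interaction of -1.34 (standard error 0.14) on the log2 scale, Psme2b 1.14 (standard error 0.14) and Mup16 4.25 (standard error 1.21). All groups held 2 libraries, so no library was tested as an outlier.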

How the results depend on the processing

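The count of 3 genes called in the knockout was 10 in a fit of the 4 knockout libraries, 50 without a low-count filter, 1 with robust estimation, 0 with the copies summed, 0 without genes sharing a window and 1 at a log2 fold change over 1. Leaving out a library gave 1 to 8. The replicate number as a block gave 3 over 8 libraries and 17 over 4. Deviations of same-numbered libraries correlated at -0.027, so the numbers were not taken to pair samples. The count of genes with an unadjusted p under 0.05 was 494 and 359 with DESeq2 on 8 and 4 libraries, and 648 to 1464 with a library left out. The genes within 0.5 numbered 8352 to 9361 with a library left out. With no minimum fold and with over 1, wild type had 5859 and 1244 calls and the interaction 4192 and 1040. With a library left out they had 2428 to 2796 and 2117 to 2457. The slope on the wild-type change was -0.0037 over genes with 10 counts in every library and -0.042 to 0.0090 with a library left out. The causes were not tested. Genes under 30 counts are limited by depth.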
